A study of Mus musculus with 6 samples.

Results

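10 genes that set the restriction point of the cell cycle were followed through mouse cardiomyocyte and cardiac fibroblast co-cultures: the D-type cyclin genes Ccnd1, Ccnd2 and Ccnd3, the kinase genes Cdk4 and Cdk6, the inhibitor genes Cdkn1a, Cdkn1b, Cdkn1c and Cdkn2a, and the retinoblastoma gene Rb1. They were chosen by name, for their function, with earlier results of these data known. All 10 were found among the 27179 genes of the bulk table and in both single-cell tables. Immature cardiomyocytes (imCMs) from newborn C57BL/6 mouse hearts were grown either with neonatal cardiac fibroblasts (NFs; the imCM-NF group, n = 2 libraries) or with adult cardiac fibroblasts (AFs; the imCM-AF group, n = 2 libraries), and their RNA was sequenced in bulk. No gene was altered in any group, and the labels do not say whether the 2 libraries of a group came from separate cultures, so p-values measure the spread between these libraries, which may be technical. Cells of the cultures were also sequenced singly in nanowells (ICELL8), on 1 chip labelled cardiomyocytes and 1 chip labelled fibroblasts. Fibroblasts had been passaged before use and fewer NFs than AFs were plated, per the study's methods, so the age of the fibroblasts cannot be told apart from the number plated.

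A D-type cyclin binds Cdk4 or Cdk6, and the active kinase phosphorylates the Rb protein, which then releases E2F transcription factors to switch on the genes of DNA replication. The Cip/Kip inhibitors encoded by Cdkn1a (p21), Cdkn1b (p27) and Cdkn1c (p57) bind cyclin-kinase complexes, while the Ink4 protein encoded by Cdkn2a binds Cdk4 and Cdk6 directly. Mouse cardiomyocytes stop dividing soon after birth, and these genes are widely studied as part of that exit.

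Cdkn2a makes a pair of unrelated proteins, p19Arf from a distal first exon and p16Ink4a from a proximal one, and gene counts merge both. The 250 bases before each of its starts, and before the single listed start of Cdk4, are shown here because Cdkn2a was the called rise among the 10 genes and Cdk4 the more abundant of the called falls. The sequences are from RefSeq (GRCm38.p6, the assembly that mm10 names), read 5′ to 3′ on the strand of the gene. Capitals mark GC boxes (GGGCGG) and E-boxes (CACGTG) on either strand, searched together with E2F sites (TTTGGCGC, TTTCGCGC) and CCAAT boxes (CCAAT), and none of these motifs contains another.
Cdkn2a, distal start, chr4:89294620-89294869, minus strand: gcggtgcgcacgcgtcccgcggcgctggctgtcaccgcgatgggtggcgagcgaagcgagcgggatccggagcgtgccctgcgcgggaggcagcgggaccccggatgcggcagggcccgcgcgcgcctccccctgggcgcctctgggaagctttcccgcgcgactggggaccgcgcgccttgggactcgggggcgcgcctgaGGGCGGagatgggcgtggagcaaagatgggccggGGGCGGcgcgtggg
Cdkn2a, proximal start, chr4:89282193-89282442, minus strand: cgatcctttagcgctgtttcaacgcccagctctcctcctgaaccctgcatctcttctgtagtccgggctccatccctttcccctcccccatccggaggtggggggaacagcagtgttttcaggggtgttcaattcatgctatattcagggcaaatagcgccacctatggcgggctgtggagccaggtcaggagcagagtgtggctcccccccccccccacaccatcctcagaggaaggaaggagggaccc
Cdk4, chr10:127063285-127063534, plus strand: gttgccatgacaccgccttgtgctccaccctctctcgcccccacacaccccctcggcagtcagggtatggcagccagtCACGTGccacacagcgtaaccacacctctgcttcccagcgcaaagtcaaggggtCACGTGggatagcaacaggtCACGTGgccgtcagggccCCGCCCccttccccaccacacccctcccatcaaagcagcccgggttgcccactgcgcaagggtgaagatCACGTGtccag
The distal Cdkn2a window held 2 GC boxes and none of the other motifs, the proximal window held none of the 4 motifs, and the Cdk4 window held 4 E-boxes and 1 GC box. Of 32851 such windows, 32.7% held a GC box, 6.02% an E-box, 33.8% a CCAAT box and 0.654% an E2F site. No E2F site of these letters was found in any of the 9 windows listed for 6 of the 10 genes. Ccnd1, Ccnd2, Cdkn1c and Rb1 had no entry.

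Total counts lay between 9278909 and 12088577 per bulk library, and libraries of one group differed by more than counting noise (chi-square per degree of freedom 8.60 in imCM-NF and 8.42 in imCM-AF). All 12 cardiomyocyte markers were detected and had estimates above 0 in imCM-AF, with Ttn and Pln called. They summed to 44952 and 32990 CPM (counts relative to the TMM-scaled library total) with NFs and to 42703 and 46807 CPM with AFs, so that imCM-NF replicate 2 stood below the other libraries. Markers of other cells were present as well and moved with the groups. All 12 fibroblast markers were lower in imCM-AF, 8 of them called, with a summed level of 20054 and 22133 CPM in imCM-NF against 13769 and 10976 CPM in imCM-AF. All 10 endothelial markers were lower too, 5 of them called, at 971 and 1009 CPM against 662 and 629 CPM. Of the macrophage, smooth muscle and epicardial markers, 2 of 10, 2 of 8 and 1 of 6 tested were called, all lower. The part of these cells in the values of the 10 genes was not tested in the bulk libraries, and fewer cells of a type cannot be told apart there from less RNA per cell.

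The bulk comparison asked which restriction point genes differed between the imCM-AF and imCM-NF libraries. Calls needed both an adjusted p below 0.05 (edgeR's quasi-likelihood test, Benjamini-Hochberg over 14041 genes) and a log2 fold change beyond 0.58 in size. Of the 10 genes, 3 were called, beside 11.1% of all tested genes: Cdkn2a rose in imCM-AF, and Cdkn1c and Cdk4 fell. By direction, 1 of 10 was called higher, beside 6.15% of all genes, and 2 of 10 lower, beside 4.99%. The same 3 genes and no other of the 10 passed on adjusted p alone, beside 27% of all genes.

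**Figure D1:**
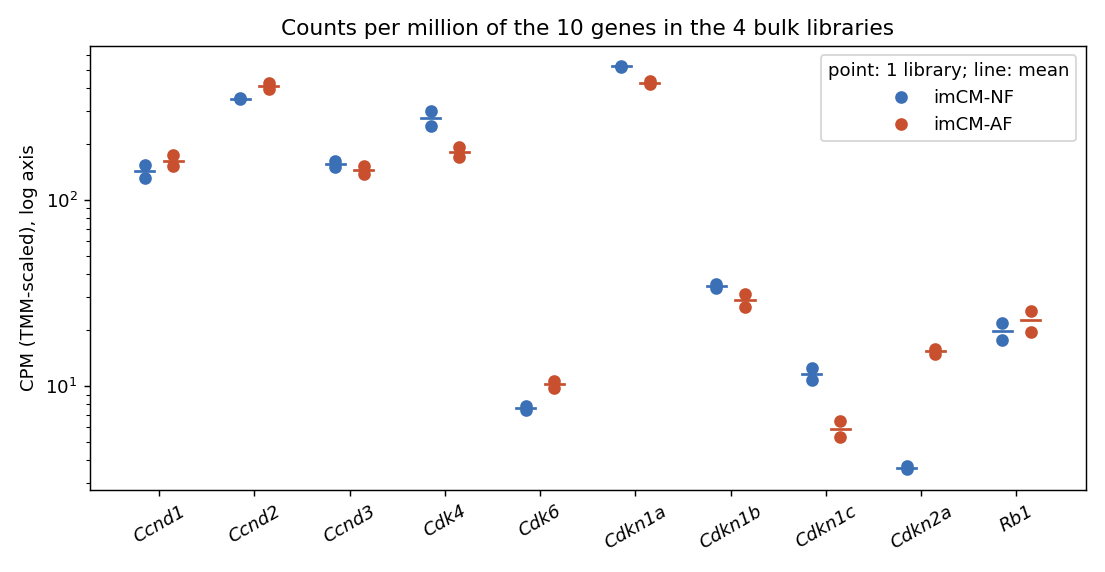
CPM (vertical log axis, TMM-scaled) of the 10 genes in the 4 bulk libraries. Each point is 1 library and each line the mean of 2. Cdkn2a stands at 3.57 and 3.72 CPM in imCM-NF and at 14.9 and 15.9 CPM in imCM-AF, the widest gap in the plot.

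None of the cyclin genes passed the test. Ccnd1 (Entrez 12443, chromosome 7, 144929931 to 144939831) was at 131 and 155 CPM with NFs and at 173.6 and 151 CPM with AFs. These libraries overlapped, and its log2 fold change (imCM-AF over imCM-NF throughout) was 0.19 ± 0.11 (SE, n = 2 per group, edgeR adjusted p 0.215). Ccnd2 (Entrez 12444, chromosome 6, 127125162 to 127152188), the cyclin with the highest level per length here, measured 352 and 350.3 CPM with NFs and 424 and 397 CPM with AFs. Both imCM-AF libraries lay above both imCM-NF libraries, but the log2 fold change of 0.23 ± 0.11 did not pass the test (edgeR adjusted p 0.129). Ccnd3 (Entrez 12445, chromosome 17, 47505051 to 47599689) stood at 162 and 151 CPM against 152 and 138 CPM, overlapping groups with an estimate of -0.11 ± 0.10 (edgeR adjusted p 0.448).

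Of the kinase genes, Cdk4 fell and Cdk6 did not pass the test. Cdk4 (Entrez 12567, chromosome 10, 127063535 to 127067288) measured 248 and 299.9 CPM with NFs and 194 and 170.1 CPM with AFs. Both imCM-AF libraries were below both imCM-NF libraries, and Cdk4 fell by 0.59 on the log2 scale, with an SE of 0.11 (edgeR adjusted p 0.00112). That value sits just past the fold threshold, and the call was lost with library totals as the only scaling (-0.55), with imCM-NF replicate 2 left out (-0.44) and with imCM-AF replicate 2 left out (-0.50). Cdk6 (Entrez 12571, chromosome 5, 3341004 to 3531008) had far fewer reads, at 7.80 and 7.43 CPM with NFs and 10.7 and 9.75 CPM with AFs. The groups did not overlap, yet its log2 fold change of 0.42 ± 0.18 did not pass (edgeR adjusted p 0.0860). Within a library, where no scaling enters, Cdk4 was 137 and 173.7 times Cdk6 per length in imCM-NF and 78.1 and 75.2 times in imCM-AF.

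Cdkn2a (Entrez 12578, chromosome 4, 89274473 to 89294619) showed the widest difference of the 10 genes. It had 32 and 45 reads in imCM-NF against 163 and 189 reads in imCM-AF, or 3.57 and 3.72 CPM against 14.9 and 15.9 CPM. Its log2 fold change was 2.07 ± 0.19, a 4.2-fold higher level (edgeR adjusted p 7.59e-07), and 99.5% of tested genes had an absolute log2 fold change no larger. The estimate lay between 2.03 and 2.13 over the alternatives, and the call was kept in each of them, libraries left out included. No annotated exon of another gene overlaps Cdkn2a.

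Of the Cip/Kip genes, Cdkn1c was called and the other two were not. Cdkn1c (Entrez 12577, chromosome 7, 143458339 to 143461059), an imprinted gene, measured 10.8 and 12.6 CPM with NFs and 5.29 and 6.47 CPM with AFs. The groups did not overlap, and Cdkn1c fell by 0.99 on the log2 scale, with an SE of 0.19 (edgeR adjusted p 0.00104), a call that every alternative kept. Cdkn1a (Entrez 12575, chromosome 17, 29090979 to 29100722), a p53 target gene, measured 524 and 519.6 CPM with NFs and 436 and 418 CPM with AFs. Its libraries were tight within each group and apart between them, with a log2 fold change of -0.29 ± 0.11 that missed the threshold (edgeR adjusted p 0.0653). Cdkn1b (Entrez 12576, chromosome 6, 134920401 to 134925525) was at 33.8 and 35.3 CPM with NFs and 26.6 and 31.3 CPM with AFs. Its groups did not overlap, and the estimate of -0.25 ± 0.11 did not pass (edgeR adjusted p 0.106). Rb1 (Entrez 19645, chromosome 14, 73192858 to 73325951) was at 21.8 and 17.8 CPM with NFs and 19.6 and 25.5 CPM with AFs, overlapping groups with an estimate of 0.20 ± 0.15 (edgeR adjusted p 0.330). Whether counting used strand is not given in the sources used here. Exons on the other strand overlap Cdk4 (Tspan31), Cdkn1c (Gm44732), Ccnd1 (LTO1), Ccnd2 (9330179D12Rik and Gm43126), Ccnd3 (Bysl), Cdk6 (Gm17590), Cdkn1a (AC167363.2) and Rb1 (Lpar6 and Rcbtb2), so their counts are uncertain to that extent.

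**Figure D2:**
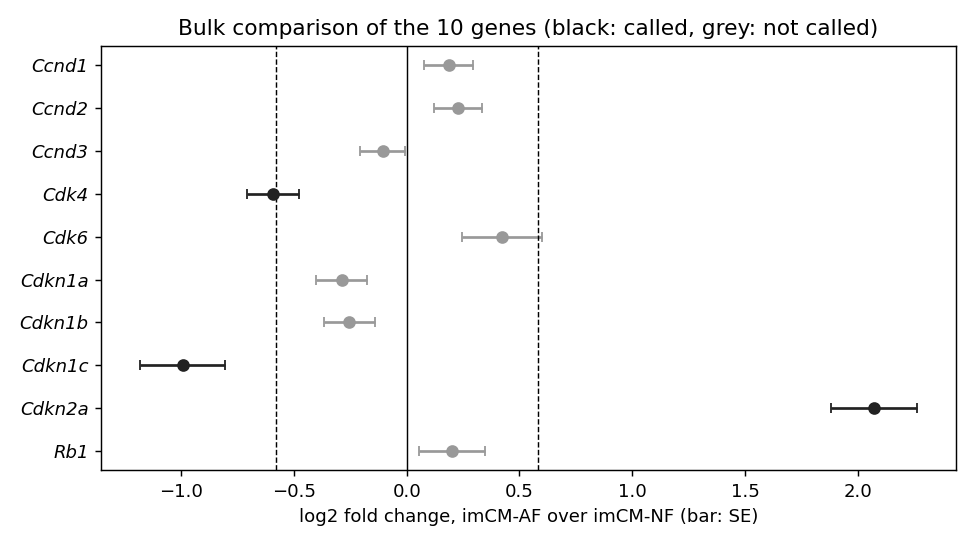
Log2 fold change of each gene in imCM-AF over imCM-NF (horizontal axis) with its SE, from edgeR with 2 libraries per group. Dashed lines mark the fold threshold of 0.58 in each direction. Black points, the called genes, are Cdkn2a at 2.07, Cdkn1c at -0.99 and Cdk4 at -0.59.

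Per length (RPKM, the CPM divided by the exon length in kilobases), Cdkn1a had the highest level of the 10 genes, with a mean of 147 ± 0.895 RPKM in imCM-NF and 120.2 ± 3.60 RPKM in imCM-AF (SD, n = 2). Cdk4 followed at 84.4 ± 11.2 and 56.0 ± 5.10 RPKM, then Ccnd2 at 37.3 ± 0.0913 and 43.7 ± 2.07 RPKM, Ccnd1 at 30.3 ± 3.63 and 34.5 ± 3.33 RPKM and Ccnd3 at 17.8 ± 0.940 and 16.5 ± 1.09 RPKM. The lower end of the order changed between groups. In imCM-NF, Cdkn2a stood at 3.11 ± 0.0908 RPKM, within the range of Rb1 (2.95 to 3.63 RPKM) and below Cdkn1b (7.58 ± 0.233 RPKM) and Cdkn1c (5.73 ± 0.605 RPKM). In imCM-AF it stood at 13.1 ± 0.605 RPKM, above Cdkn1b (6.36 ± 0.742 RPKM), Rb1 (3.75 ± 0.686 RPKM) and Cdkn1c (2.88 ± 0.408 RPKM). Cdk6 had the lowest level in both groups, at 0.545 ± 0.0186 and 0.730 ± 0.0471 RPKM. Within a library, Cdkn1a was 48.5 and 46.1 times Cdkn2a in imCM-NF and 9.67 and 8.69 times in imCM-AF.

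The genes that act around the 10 were read from fixed lists in the same fit, where the median over all tested genes was 0.0011 on the log2 scale. Among 6 other inhibitor and pocket protein genes, 2 were called, both lower: Cdkn3, a phosphatase that acts on cyclin-dependent kinases, (-1.05 ± 0.22, edgeR adjusted p 0.00215) and the Ink4 gene Cdkn2c (-0.65 ± 0.19, edgeR adjusted p 0.0157). Cdkn2b, the Ink4 neighbour of Cdkn2a, had an estimate of 0.29 ± 0.15 on the log2 scale (edgeR adjusted p 0.154). Of 17 E2F, DP and DREAM complex genes none was called by edgeR (median -0.0017). At an unadjusted p under 0.05 the number was 7, DESeq2 called 0, limma-voom called 1, and 3 and 2 were called with replicate 1 of imCM-NF or of imCM-AF left out. Foxm1, a driver of mitotic genes, had an estimate of -0.55 ± 0.12 (edgeR adjusted p 0.00222) and E2f6, a repressive E2F, one of 0.37 ± 0.11 (edgeR adjusted p 0.0189), both short of the fold threshold. Of 18 S phase genes that E2F controls, 16 had estimates below 0 (median -0.23), but only Gins2, a helicase subunit, was called (-0.66 ± 0.14, edgeR adjusted p 0.00192).

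Among genes of the later phases, every call was lower in imCM-AF. Of 13 later cyclins, kinases and activators, 4 were called, all lower (median -0.12): the phosphatase genes Cdc25b (-0.87 ± 0.13) and Cdc25c (-0.65 ± 0.19) and the mitotic cyclins Ccnb2 (-0.78 ± 0.13) and Ccnb1 (-0.75 ± 0.14). All 20 mitosis genes had estimates below 0 (median -0.49) and 7 were called, led by Cdc20 (-1.04 ± 0.13, edgeR adjusted p 2.64e-05), Plk1 (-0.83 ± 0.13), Aurkb (-0.78 ± 0.14) and Ccnb1. Without imCM-NF replicate 2 the number called fell to 3 in the mitosis list, 1 among the later cyclins and 0 among the other inhibitors, the S phase and the turnover genes, and without imCM-NF replicate 1 it was 13 in the mitosis list. Of 11 genes of cyclin D and p27 turnover, only Cks1b, a cofactor of the ligase that degrades p27, was called (-0.64 ± 0.11, edgeR adjusted p 4.83e-04). Among 20 p53 target genes (median 0.02), the kinase gene Plk2 was called higher (0.65 ± 0.11), and the apoptosis gene Bax (-0.60 ± 0.10) and Dcxr (-0.81 ± 0.14) lower.

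In the single-cell files the authors gave each well a name. On the cardiomyocyte chip these were NFNCM and AFNCM, numbered 1 to 3, and NCM0, numbered 1 and 2. On the fibroblast chip they were NF, AF, NF0 and AF0, each numbered 1 and 2. What NCM0, NF0 and AF0 stand for, and whether the numbers mark separate cultures, is not given in the sources used here, so the values below are descriptions with no test. Of 2462 wells other than controls, 2247 were kept. Levels are CPM of unique molecular identifiers (UMIs), summed over the kept wells, with exact Poisson 95% intervals that cover counting error only. UMIs were often bunched in 1 well: 1 NCM0_1 well held 860 of the 2608 Cdkn1a UMIs of that name, and 1 AF0_1 well held 77 of 95 Cdkn1c UMIs. The 5 negative control wells of each chip held 2 Cdkn1a UMIs each and, on the fibroblast chip, 3 Cdk4 UMIs, and none of the other genes.

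**Figure D3:**
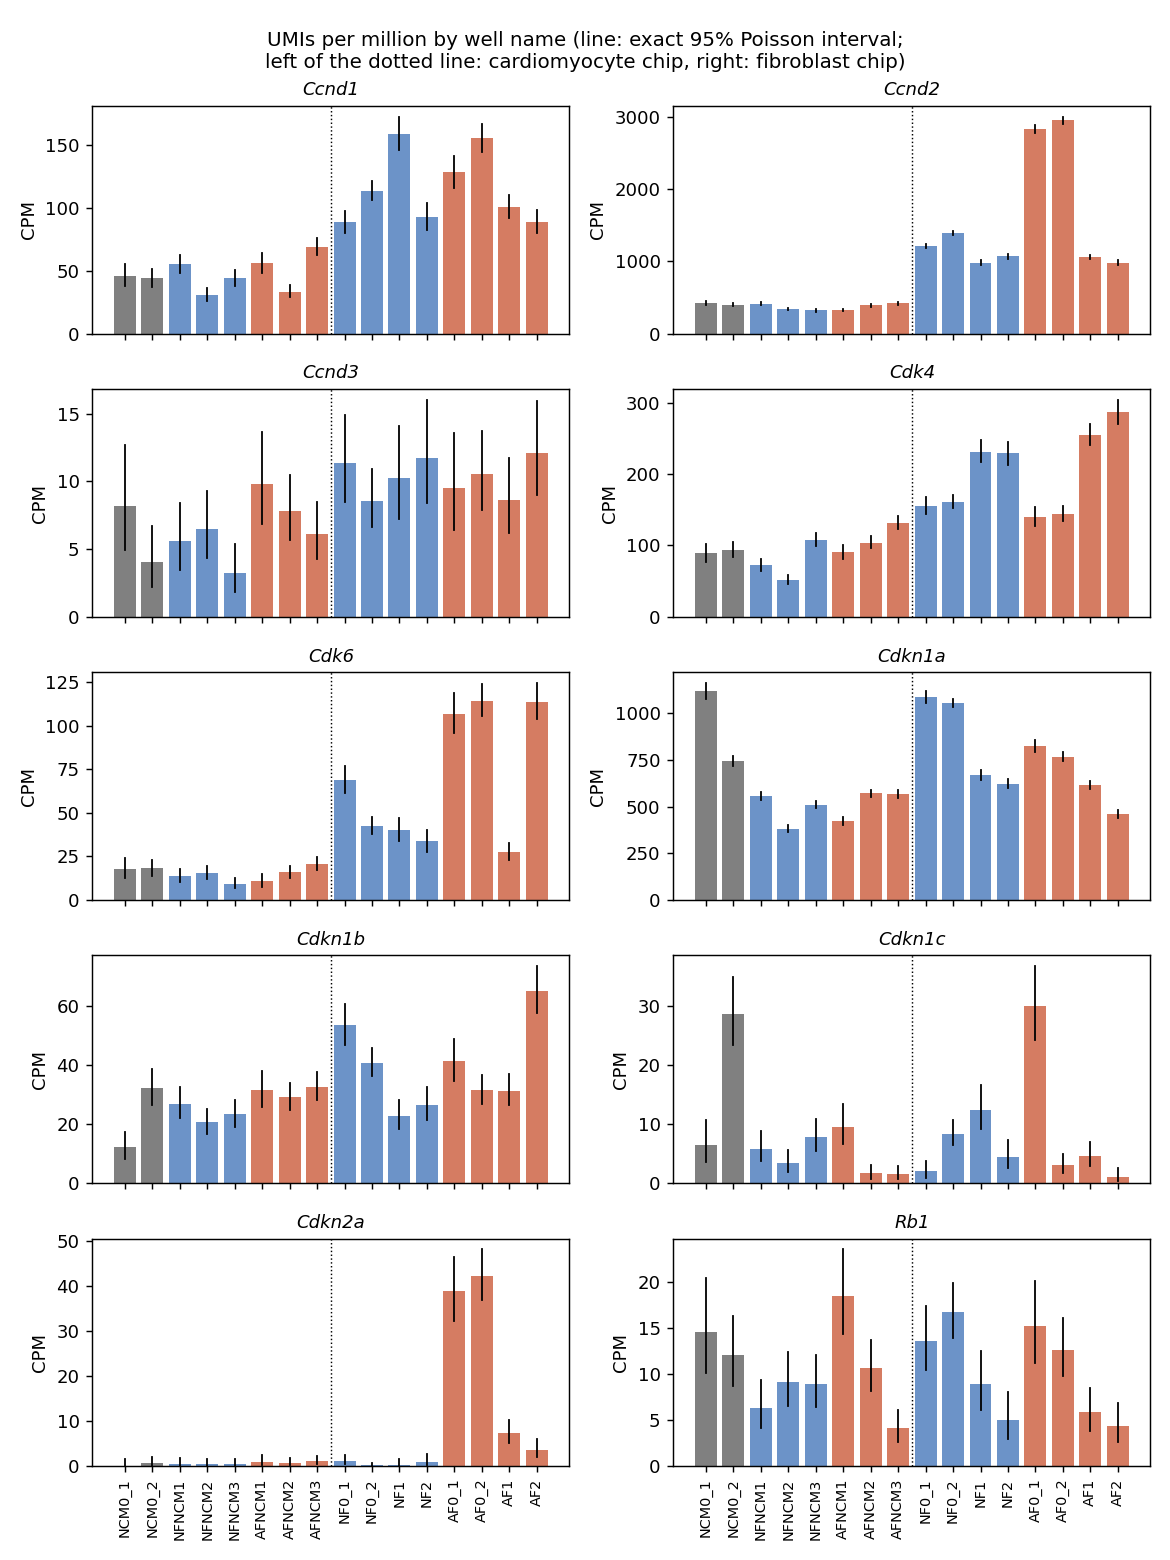
CPM of UMIs (vertical axes, linear, each from 0) for the 10 genes in the 16 well names. Bars are sums over kept wells and black lines exact Poisson 95% intervals, with the cardiomyocyte chip left of the dotted line. Cdkn2a reaches 38.9 and 42.3 CPM in AF0 wells, and Ccnd2 2833 and 2949 CPM.

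Cdkn2a was found mostly in AF0 wells. It had 40.99 CPM (36.8 to 45.6) in AF0 wells, with 38.9 and 42.3 CPM in the 2 names, and 5.58 CPM (4.13 to 7.38) in AF wells, with 7.33 and 3.63 CPM. In NF0 and NF wells it had 0.493 CPM (0.181 to 1.07) and 0.562 CPM (0.153 to 1.44), from 6 and 4 UMIs. On the cardiomyocyte chip its level was 0.862 CPM (0.459 to 1.47) in AFNCM, 0.459 CPM (0.169 to 0.9999) in NFNCM and 0.344 CPM (0.0416 to 1.241) in NCM0 wells, each from 13 UMIs or fewer. The ratio of AF0 to NF0 wells was 83.1 (interval 37.8 to 228), that of AF to NF wells 9.93 (3.64 to 37.9) and that of AFNCM to NFNCM wells 1.88 (0.665 to 6.02), the last including 1. At least 1 Cdkn2a UMI was found in 59.4% of 170 AF0 wells (exact binomial interval 51.6 to 66.9) and in 1.63% of 306 NF0 wells (0.533 to 3.77). After each well had been thinned to 5000 UMIs these shares were 20.1% of 169 wells (14.4 to 26.96) and 0.347% of 288 wells (0.00879 to 1.92).

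AF0 wells also had the highest Ccnd2 level of the 7 groups of wells, at 2905 CPM (2869 to 2942). NF0 wells followed at 1326 CPM (1306 to 1347), AF and NF wells lay side by side at 1026 (1005 to 1047) and 1025 CPM (1002 to 1049), and the cardiomyocyte chip ranged from 355 CPM in NFNCM to 408 CPM in NCM0 wells. Cdk6 summed over each group was likewise highest in AF0 wells, at 111 CPM (104 to 119), against 52.3 CPM (48.4 to 56.6) in NF0 wells. In AF wells the 2 names stood apart for Cdk6, at 27.15 CPM in AF1 and 114 CPM in AF2, where 1 well held 142 of 470 UMIs, so no order of AF against NF wells (33.5 and 40.2 CPM) can be read. Between AF0 and NF0 wells, 6 of the 10 genes had names that did not overlap, beside 54.4% of 12123 genes with at least 200 UMIs. Those 6 genes were Ccnd1, Ccnd2, Cdk6 and Cdkn2a, higher in AF0, and Cdk4 and Cdkn1a, lower. Nearly all AF0 wells, 164 of 170, formed a cluster of their own in which 4 of 8 epicardial markers were raised. Over all AF0 wells, Upk1b was at 206 CPM against 16.8 CPM in NF0 wells, and Lrrn4 at 67.8 against 0.493 CPM. Wt1, a defining epicardial marker, was at 0.358 CPM in AF0 and 1.73 CPM in NF0 wells, while the fibroblast markers summed to 12830 CPM in AF0 and 13980 CPM in NF0 wells, so no cell type name is given to that cluster. NF0 wells also held more of the cardiomyocyte markers, 5346 CPM in sum against 279 CPM in AF0, and of the macrophage markers, 907 against 125 CPM. The part of these differences between AF0 and NF0 wells in the values of Cdkn2a, Ccnd2 and Cdk6 was not tested.

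Between AF and NF wells, 4 of the 10 genes had names that did not overlap, beside 44.1% of all genes. Cdk4 had 269.9 CPM (255 and 287 by name) in AF against 230.3 CPM (231.5 and 229) in NF wells, a ratio of 1.17 (1.10 to 1.249). Cdkn1a was lower in AF, at 542 against 646 CPM, a ratio of 0.838 (0.805 to 0.873). With every well weighted alike its names overlapped, at 579 and 469 CPM in AF and 588 and 538 CPM in NF wells. Cdkn1b was higher in AF by a ratio of 1.93 (1.61 to 2.32), but with every well weighted alike the levels were 41.6 CPM in AF and 44.9 CPM in NF wells, which turns the order around. Cdkn2a was the fourth. Ccnd1 had overlapping names, from 88.7 to 101 CPM in AF and from 92.8 to 159 CPM in NF wells. Markers of cell types moved with these groups as well. The fibroblast markers summed to 13830 CPM in AF and 9533 CPM in NF wells, the cardiomyocyte markers to 676 and 3793 CPM, and the macrophage markers to 77.9 and 350.2 CPM, and their part in the values of the 10 genes was not tested.

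On the cardiomyocyte chip, 2 of the 10 genes had AFNCM names that did not overlap with NFNCM names, beside 20.1% of all genes. They were Cdkn1b, at 29.1 to 32.5 CPM in AFNCM and 20.5 to 26.8 CPM in NFNCM wells, and Cdkn2a, from 13 and 6 UMIs in all. With every well weighted alike, Cdkn1b had 26.7 CPM in AFNCM and 28.9 CPM in NFNCM wells, so that order turns around as well. Cdk4, lower in imCM-AF in bulk, had 90.75 to 132 CPM in AFNCM and 51.7 to 108 CPM in NFNCM wells, a ratio of 1.44 (1.33 to 1.55) in the other direction with overlapping names. Its names stood apart with every well weighted alike, at 96.15 to 150.4 CPM in AFNCM and 55.74 to 94.2 CPM in NFNCM wells. Fibroblast markers were at 5027 CPM in AFNCM and 3145 CPM in NFNCM wells and endothelial markers at 452 and 105 CPM, both also opposite to their bulk direction. Cardiomyocyte markers were at 39250 and 45000 CPM, while all 12 had bulk estimates above 0. The part of these markers in the Cdk4 ratio was not tested. Cdkn1c, also lower in imCM-AF in bulk, had a ratio of 0.608 (0.418 to 0.879), with overlapping names (1.53 to 9.52 against 3.34 to 7.79 CPM). Between NFNCM and NCM0 wells, 3 genes did not overlap, beside 27.4% of all genes. Cdkn1a was at 381 to 557 against 744.5 and 1118 CPM. Cdk6 was at 9.305 to 15.4 against 17.6 and 18.05 CPM, and Rb1 at 6.325 to 9.14 against 12.04 and 14.6 CPM. With every well weighted alike, Cdkn1a names stayed apart, at 464 to 492 against 752.5 and 781 CPM. Cdk6 and Rb1 names then overlapped, with Cdk6 at 7.03 to 15.5 against 11.9 and 17.9 CPM. Rb1 was at 9.86 to 12.5 against 8.525 and 28.15 CPM. In NCM0_1 wells, 1 well held 27 of the 41 Cdk6 UMIs.

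Wells of both chips held several cell types, so the 10 genes were also read by cell class. Clustering without the 10 genes and without the other cell cycle lists gave 15 clusters. By their raised markers and depth, 12 passed the rule for a class: those called cardiomyocyte-like (672 wells), fibroblast-like (760), endothelial-like (115) and macrophage-like (38), and the cluster of 164 AF0 wells described above. The rule for a raised marker was set after the values had been seen, and 22.4% of NFNCM, 33.4% of AFNCM, 14.1% of NF and 19.2% of AF wells stayed without a class. Endothelial-like wells were 2.29% of NFNCM wells (1.19 to 3.97) and 10.7% of AFNCM wells (8.15 to 13.7). Cardiomyocyte-like wells were 58.3% of NFNCM and 35.5% of AFNCM wells, and most of them lay in 1 cluster in each group, 271 of 305 NFNCM wells in cluster 12 and 140 of 183 AFNCM wells in cluster 10. In cluster 10, 10 of 12 cardiomyocyte markers were raised and 0 were among its 10 leading genes by fold, which were headed by the small proline-rich genes Sprr2a1, Sprr2a2 and Sprr2b and held the interferon-induced Iigp1 and Igtp. Fibroblast-like wells were split in the same way, with 94 of 97 AFNCM and 157 of 160 AF wells of the class in cluster 5, against 1 of 81 NFNCM and 0 of 183 NF wells, the rest of which lay in clusters 1, 2 and 3. The fibroblast-like cluster 5, with 10 of 12 fibroblast markers raised, had the chemokine genes Ccl8 and Cxcl5 and the acute-phase genes Hp and Saa3 among its leading genes. Clusters 1, 2 and 3 had 7, 5 and 3 of 12 fibroblast markers raised, and 1, 0 and 0 among their 10 leading genes. The class name thus rests on fewer markers in NF, NFNCM and NF0 wells.

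**Figure D4:**
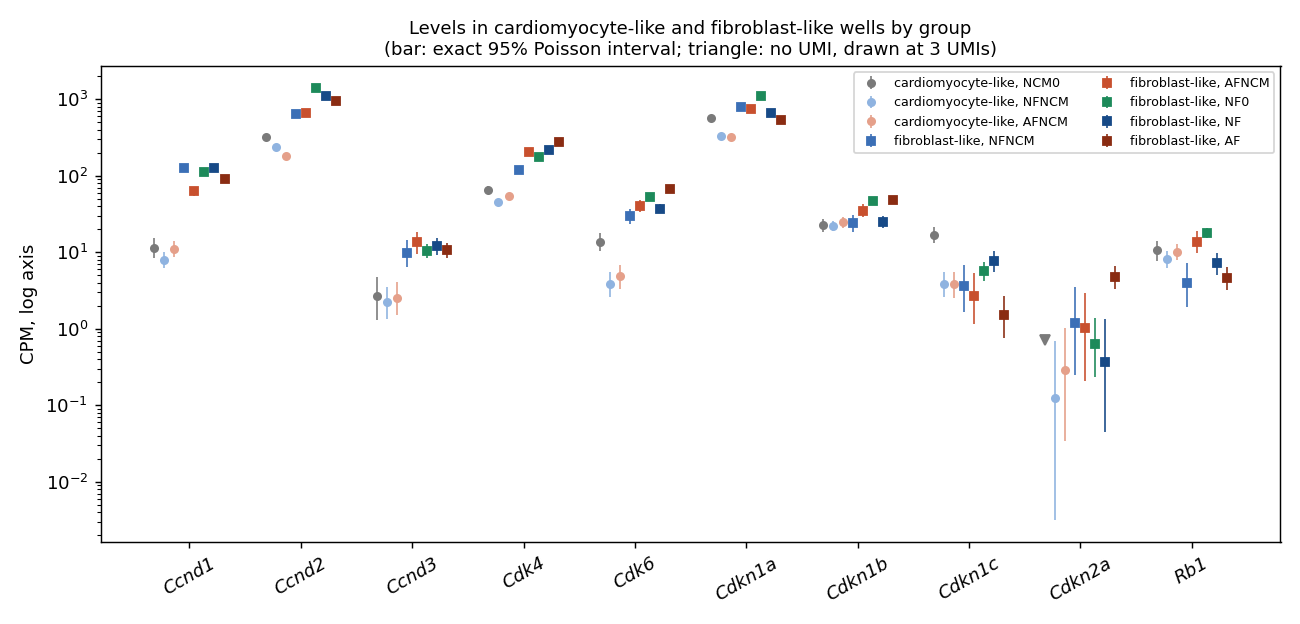
CPM of UMIs (vertical log axis) of the 10 genes in cardiomyocyte-like wells (circles) and fibroblast-like wells (squares), by group of wells, with exact Poisson 95% intervals. The triangle marks a group with no UMI, drawn at the level of 3 UMIs. Ccnd1 lies between 7.99 and 11.55 CPM in the 3 cardiomyocyte-like groups and between 62.8 and 126 CPM in the 5 fibroblast-like groups.

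Between the classes, 6 of the 10 genes were lower in all 3 cardiomyocyte-like groups than in all 5 fibroblast-like groups, beside 33.1% of all genes (13.8% were higher in all), and this is a description, since the clusters were made from these wells. Ccnd1 was at 9.75 CPM over all cardiomyocyte-like wells and 109 CPM over all fibroblast-like wells, and the groups with at least 20 wells of a class did not overlap, at 7.99 to 11.55 against 62.8 to 126 CPM. Ccnd2 was at 182 to 321 against 642 to 1414 CPM, Ccnd3 at 2.25 to 2.65 against 9.93 to 13.5 CPM, Cdk4 at 45.2 to 65.2 against 119.5 to 275 CPM, and Cdk6 at 3.87 to 13.7 against 29.8 to 67.5 CPM. Cdkn2a was the sixth, from 3 UMIs in all in the cardiomyocyte-like groups and 3, 3 and 6 UMIs in fibroblast-like NFNCM, AFNCM and NF0 wells. Its counting intervals overlapped, as at 0.285 CPM (0.0345 to 1.03) in cardiomyocyte-like AFNCM and 0.631 CPM (0.232 to 1.37) in fibroblast-like NF0 wells. For Cdkn1a, Cdkn1b, Cdkn1c and Rb1 the ranges overlapped. Cdkn1b had 22.1 to 24.6 CPM in cardiomyocyte-like and 23.8 to 48.2 CPM in fibroblast-like groups, Cdkn1c 3.845 to 16.8 against 1.498 to 7.70 CPM, and Rb1 8.12 to 10.6 against 3.97 to 18.0 CPM. Cdkn1a was at 318.5 to 579 CPM in cardiomyocyte-like and 532 to 1109 CPM in fibroblast-like groups. Leaving out the alignment and UMI limits moved Ccnd1 in fibroblast-like NFNCM wells from 126 to 198 CPM and Cdk4 there from 119.5 to 186 CPM.

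Within cardiomyocyte-like wells, Cdk4 stood at 54.25 CPM (48.9 to 59.98) in AFNCM and 45.2 CPM (40.7 to 50.1) in NFNCM, and Ccnd2 at 182 (172 to 192) and 238 CPM (227 to 249). The 2 values were 11.1 and 7.99 CPM for Ccnd1, 4.84 and 3.87 CPM for Cdk6, 318.5 and 336 CPM for Cdkn1a, 24.6 and 22.1 CPM for Cdkn1b, and 10.1 and 8.12 CPM for Rb1. Cdkn1c was at 3.845 CPM (2.53 to 5.59) and 3.87 CPM (2.63 to 5.495), from 27 and 31 UMIs. With every well weighted alike, its levels were 3.14 CPM in AFNCM and 7.05 CPM in NFNCM, so their likeness depends on the weighting. Cdkn2a had 2 UMIs in 183 AFNCM wells of this class, or 0.285 CPM (0.0345 to 1.03), and 1 UMI in 305 NFNCM wells, or 0.125 CPM (0.00316 to 0.696). Among fibroblast-like wells it had 35 UMIs in AF wells, 4.77 CPM (3.32 to 6.63), and 2 UMIs in NF wells, in the different clusters given above. On the cardiomyocyte chip, fibroblast-like wells had 3 Cdkn2a UMIs in AFNCM, 1.01 CPM (0.209 to 2.96), and 3 in NFNCM, 1.19 CPM (0.246 to 3.48). Of the 13 Cdkn2a UMIs in AFNCM wells, 7 lay in the 172 wells without a class, 2.40 CPM (0.963 to 4.94). The 55 endothelial-like AFNCM wells held 1, 0.547 CPM (0.0138 to 3.05). Upper bounds in AFNCM wells were thus 4.94 CPM in wells without a class and 3.05 CPM in endothelial-like wells. They were 2.96 CPM in fibroblast-like and 1.03 CPM in cardiomyocyte-like wells. The imCM-AF bulk libraries had 14.9 and 15.9 CPM, though UMIs and bulk reads are not on one scale. Which cells gave the bulk reads was not tested. NCM0 wells of the class had more Ccnd2 (321 CPM, 304 to 339), Cdk4 (65.2 CPM, 57.7 to 73.4), Cdk6 (13.7 CPM, 10.4 to 17.8), Cdkn1a (579 CPM, 556 to 603) and Cdkn1c (16.8 CPM, 13.1 to 21.3) than NFNCM wells, beyond counting error. In 1 well each lay 25 of the 57 Cdk6 UMIs and 16 of the 70 Cdkn1c UMIs of NCM0 wells of the class.

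Wells were last split by UMIs of the 20 mitosis genes after thinning to 5000 UMIs. In cardiomyocyte-like wells, 56 had 3 or more such UMIs, 163 had 1 or 2, and 384 had none. By group, the first were 10.6% of AFNCM (exact binomial interval 6.40 to 16.2), 4.44% of NFNCM (2.32 to 7.635) and 14.4% of NCM0 wells (9.24 to 20.96) of the class, and 49.7%, 21.97% and 40.5% without thinning, at median depths of 33614, 22716 and 17248 UMIs. The thinned AFNCM and NFNCM intervals overlapped, and their order was opposite to that of the mitosis genes in bulk. Cdk4 was at 100.0 CPM (66.45 to 144.5) in the first and 55.7 CPM (45.7 to 67.3) in the last, with overlapping intervals. Ccnd2 was at 243 (189 to 308) and 236.5 CPM (215 to 259), and Cdkn1a at 421 (349 to 505) and 379 CPM (352 to 407), and the intervals of each gene overlapped. Cdkn1c and Rb1 had 15 and 25 UMIs in wells with no mitosis gene UMI and 0 in wells with 3 or more, where a count of 0 allows up to 10.7 CPM (taken as 3 UMIs, as in the plots). In fibroblast-like wells, 462 had 3 or more, 139 had 1 or 2, and 116 had none. The first were 73.9% of AFNCM (63.7 to 82.5) and 55.2% of NFNCM wells (42.6 to 67.4) of the class, and 68.99% of AF (61.15 to 76.1) and 71.4% of NF wells (63.96 to 78.1), or 87.6%, 65.4%, 91.9% and 87.4% without thinning. Ccnd2 was lower in the first (986 CPM, 946 to 1027) than in the last (1233 CPM, 1144 to 1327), as was Cdkn1a (729 CPM, 694 to 764, against 840 CPM, 767 to 918). Cdkn1c was at 1.30 CPM (0.268 to 3.795) against 13.8 CPM (5.955 to 27.2), from only 3 and 8 UMIs, and these intervals cover counting error only. With 2 or more mitosis gene UMIs in place of 3, Cdkn1a was at 743 CPM (710 to 777), which overlaps with its level in the last. Cdk4 was at 216 (197.5 to 236) against 183 CPM (150 to 221), which overlap. The classes of wells came from several groups in unequal shares, and the part of the group in these values was not tested.

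**Figure D5:**
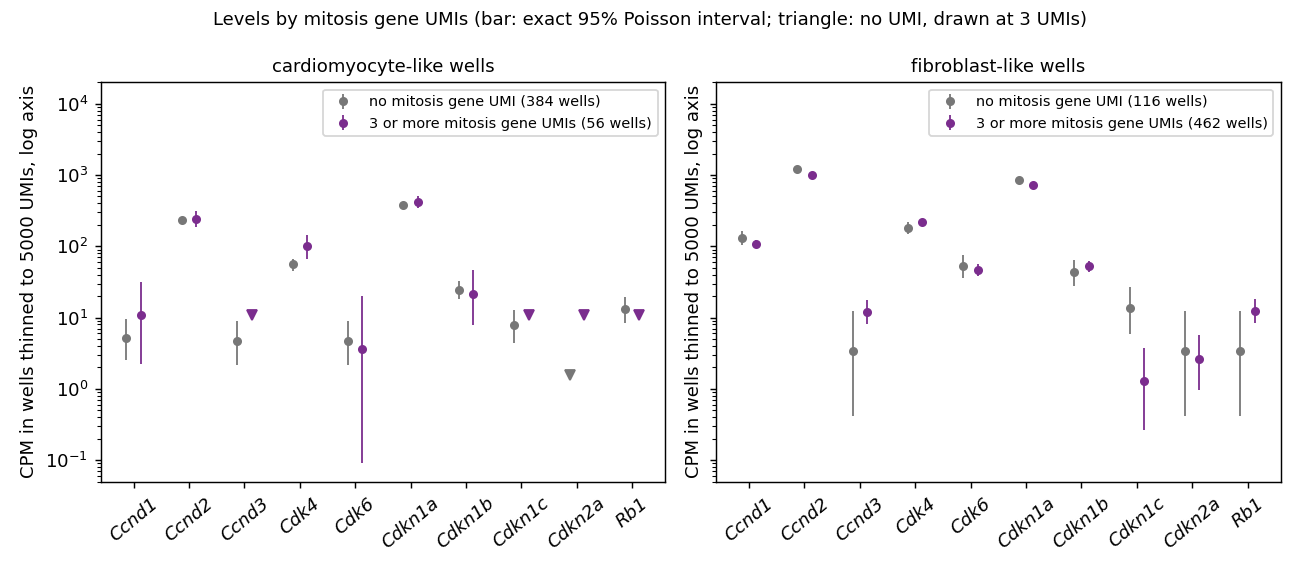
CPM of UMIs (vertical log axis) of the 10 genes in wells thinned to 5000 UMIs, for cardiomyocyte-like wells (left) and fibroblast-like wells (right), without and with 3 or more mitosis gene UMIs. Bars are exact Poisson 95% intervals and triangles mark 0 UMIs, drawn at 3 UMIs. Cdk4 is at 55.7 and 100.0 CPM on the left and at 183 and 216 CPM on the right.

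For each gene, the 3 genes with the most similar pattern were found by Pearson r of log2(CPM + 1) over the 16 well names. Names of one chip share a library run and differ in depth and cell types, so r is a description. Ccnd2 went with Gnai2 (0.978), Hsp90aa1 (0.970) and Rpl28-ps3 (0.9695), Ccnd1 with Gm4799 (0.942), Taf10 (0.929) and Cfl1 (0.923), and Ccnd3 with Eef1akmt3 (0.919), Zcchc17 (0.895) and Rad50 (0.8865). Cdk4 went with Srm (0.928), Gm13573 (0.926) and Npm3 (0.920), and Cdk6 with Prrc2c (0.946), Ppfibp1 (0.945) and Rps6ka4 (0.942). Cdkn2a went with Asb5 (0.9535), Gpm6a (0.9465) and Gal3st2 (0.943), of which Asb5 led the cluster of AF0 wells. The values were lower for Cdkn1b (Clstn1 0.881, Gm11969 0.857, Hnrnpa0 0.843), Cdkn1a (Ei24 0.827, Adamts12 0.822, 4933434E20Rik 0.812), Rb1 (Sgta 0.812, Pkia 0.808, Kif1c 0.791) and Cdkn1c (Bod1 0.800, Fbxl5 0.785, Pex5 0.734).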

How the data were processed

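The authors deposited raw counts per gene for 4 bulk libraries of co-cultured imCMs and UMI counts per gene and well for 2 single-cell chips. Per the study's methods and the submitters' processing notes, bulk reads were aligned to mm10 with Subread and unique reads were assigned by featureCounts to RefSeq genes, and single-cell reads were trimmed, screened, aligned with STAR 2.5.2b and assigned to Ensembl genes. The notes also name Subread 1.4.6-p1, which the study lists for the single-cell data. The labels describe separation of cardiomyocytes by centrifugation and the methods a cell sort.

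Of 27179 bulk genes, those over 1 CPM in at least 2 libraries (14041) were tested with edgeR 4.0.16 (R 4.3.3), with TMM scaling and group as the only term. The deposited counts come without gene lengths, so this filter stood in for the study's RPKM filter, and RPKM used exon lengths of the GRCm38 annotation. Identifiers without a symbol (1904) held 3.52% of counts. On simulated counts for this comparison (14041 genes in the step), 90 of 100 genes changed by 1 on the log2 scale and 95 of 100 changed by 1.5 were recovered, with 2 false calls. Each SE was derived from the fold change and its F statistic.

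Wells were kept with at least 500 genes and an aligned share above 50% of their screened read pairs. Their UMIs also had to lie within 2 SD of the mean over all wells of both chips other than controls. The upper limit, the same for both chips, was 129577 UMIs. The 34 mitochondrial genes and the spike-ins (85 and 79 columns) were left out. The median was 16044.5 to 19709 UMIs per kept well in the 3 groups of the cardiomyocyte chip and 17156 to 38627 in the 4 of the fibroblast chip. Thinning to 5000 UMIs left out 296 wells. The chips shared 269 barcodes, which were treated as separate wells. No doublet caller was run, since wells were chosen by image per the methods. Clustering used scanpy 1.11.5 with 15 components and 15 neighbours. A cluster got a class where at least 3 of its markers were over 1.5 times their mean in the other clusters and that share led every other class by a fixed margin, with no other class ahead among its 10 leading genes, and not where its median UMI count was under 1/3 of its chip's with none of its markers among those 10, a rule set after seeing the data.

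The members and gene lists were chosen with earlier results of these data known. All 10 members are named, as are the called genes of each other list (at most 4, by size of change), or the 2 with the smallest adjusted p where none was called, and the 3 genes most like each member with at least 200 UMIs. Cdkn2b, Upk1b, Lrrn4 and Wt1 were named after their values were seen. Alternatives changed scaling, test, filter, replicate block, thresholds, wells and weighting of wells, and left out each library (DESeq2 1.42.0 and limma 3.58.1 were the other tools).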

Additional observations from a re-analysis of the deposited data

Results flagged for a closer look

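Positive control wells, 5 on each chip and used in no comparison, held more than 3 UMIs of 3 of the 10 genes, above the number in the negative control wells. On the cardiomyocyte chip they held 27 Cdkn1b UMIs, all in 1 well, against 0 in the negative control wells. On the fibroblast chip they held 32 Ccnd2 UMIs in 3 wells against 0, and 15 Cdkn1a UMIs in 2 wells against 2. As a share of all UMIs Cdkn1a was not above the negative control wells, with 15 of 49439 against 2 of 3587. Ccnd1, Cdkn1c and Rb1 had 1 to 3 UMIs against 0 on at least 1 chip.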

How the results depend on the processing

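Cdkn2a and Cdkn1c kept their direction and call under all alternatives run, libraries left out included, and the 7 members that were not called stayed so (Cdk6 was not tested under the RPKM filter). Cdk4 lost its call with library totals as the only scaling (log2 fold change -0.55) and ranged from -0.72 to -0.44 with 1 library left out, with the call lost when replicate 2 of either group was omitted, so that members called ranged from 2 to 3. The cause was not tested. Over all genes, 1564 were called, from 879 (imCM-NF replicate 2 omitted) to 1929 (imCM-NF replicate 1 omitted) with 1 library left out, 988 with imCM-AF replicate 2 omitted, and 3789 on adjusted p alone. With library totals alone 1005 were higher and 575 lower, against 864 and 700.

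Same-numbered libraries did not deviate together (correlation -0.18), so the replicate numbers were not taken as pairs. With a replicate block 1430 genes and 3 members were called. With the numbers crossed, chosen after seeing the data, 1668 genes were called.

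In single wells, dropping the alignment and UMI limits moved 26 of 70 levels by well group beyond their counting interval, and weighting wells alike moved 36. With wells split at 2 mitosis gene UMIs in place of 3, 1 of 40 levels in wells of the named classes moved beyond its interval, Ccnd2 in fibroblast-like wells (1029 CPM). Changes smaller than 1 on the log2 scale were not simulated.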
